A study of Homo sapiens with 8 samples.

Results

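MAPK15 and 8 further MAP kinase genes were followed through the RNA-seq libraries of 2 human bladder cancer cell lines, UM-UC-3 and RT112. The members were MAPK3, MAPK4, MAPK6, MAPK7, MAPK8, MAPK9, MAPK13, MAPK14 and MAPK15, taken by symbol from the table of TPM, a level scaled per transcript length that can be compared between genes. All 9 symbols had an entry among 27475 human genes, and all 9 were above 0 in at least 1 library of each comparison below. MAPK15 had been picked because it was higher after knock-down in RT112, so the RT112 knock-down values are a description and carry no test.

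The study used siRNA against PAI-1, a plasminogen activator inhibitor, to ask which transcripts follow its depletion. UM-UC-3 and RT112 cells each received 100 pmol of a pool of 3 siRNAs for 72 h, either against PAI-1 (siPAI-1) or scrambled (Scr), which gave 4 groups of 2 libraries. Both control groups thus went through the same transfection, and no untransfected cells were compared. The lines were kept in RPMI 1640 or DMEM, and since the medium of each line was not stated, cell line and medium cannot be told apart. The study describes its knock-down as done in independent experiments, in a number larger than that of the libraries per group here. The labels do not say which experiment each of the 2 libraries of a group came from, so the p-values measure only the spread between these libraries, which may in part be technical. In a bulk library, fewer cells with a transcript and less of it per cell cannot be told apart.

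MAP kinases are the last step of cascades in which a MAP3K phosphorylates a MAP2K, and the MAP2K phosphorylates the MAP kinase, which then acts on transcription factors and on further kinases. The ERK kinases answer mainly to growth factors, while the JNK and p38 kinases answer mainly to stress and cytokines. MAPK4, MAPK6 and MAPK15 are atypical members outside this scheme: MAPK15 (ERK8) has no known MAP2K, phosphorylates its own activation loop, binds proteins of the LC3 family in autophagy and takes part in forming cilia. Activity of these kinases depends on phosphorylation, which RNA levels do not show.

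The libraries held an estimated 29.3 to 34.15 M reads. The lines differed in their type markers. The summed level of 10 epithelial and urothelial genes was 226.1 to 244.4 TPM in UM-UC-3 and 11660 to 13430 TPM in RT112, and that of 7 mesenchymal genes was 3264 to 3547 TPM and 72.78 to 147.6 TPM. VIM alone held 2852.45 to 3142.15 TPM of the UM-UC-3 sum, and while 5 of the 7 mesenchymal genes were lower in RT112 Scr, FN1 (0.79, SE 0.076, adjusted p = 0.00248) and CDH2 (0.96, SE 0.13, adjusted p = 0.00621) were higher. CDH1, the epithelial cadherin, was at 0 in 1 UM-UC-3 library and at most 0.48 TPM in the others. RT112 siPAI-1 replicate 1 stood apart, with the lowest sum of both lists in RT112. The epithelial and mesenchymal lists moved with every difference between the lines below, and their part in those differences was not tested.

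MAPK15 was detected in RT112 and was at or near 0 in UM-UC-3. It was listed at 0 and 0.02 TPM in UM-UC-3 Scr and at 0 in both UM-UC-3 siPAI-1 libraries. In RT112 it stood at 2.63 and 2.55 TPM with Scr and at 7.47 and 7.42 TPM with siPAI-1. Each pair of RT112 libraries lay close together, both siPAI-1 values were above both Scr values, and no UM-UC-3 library came near either. The UM-UC-3 values correspond to an estimated 0, 1, 0 and 0 reads, and a count of 0 has an exact 95% Poisson limit of 3.69 reads. In RT112 the estimates were 118 reads (95% Poisson interval 97.7 to 141) and 111 reads (91.3 to 134) with Scr, against 378 reads (341 to 418) and 343 reads (308 to 381) with siPAI-1. The reads are upper estimates, so the intervals, which cover counting error only, are if anything too narrow for their values.

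With siPAI-1, the mean of MAPK15 in RT112 was 2.88 times that with Scr (7.445 ± 0.035 against 2.59 ± 0.057 TPM, SD, n = 2). The difference on the log2(TPM + 0.1) scale was 1.49 (SE 0.20), which is what the gene was chosen on. Among the 12198 genes whose RT112 mean reached 1 TPM, 30 had a difference at least as large, MAPK15 included, 82 were at least 2-fold higher and 74 at least 2-fold lower. Without RT112 siPAI-1 replicate 1 or any other single RT112 library the difference was 1.47 to 1.51. In UM-UC-3 the difference of MAPK15 was -0.13 (SE 0.33, adjusted p = 0.939), which rests on a single estimated read. Between the Scr groups, which share the RT112 Scr libraries with the comparison behind the choice, RT112 exceeded UM-UC-3 by 4.62 (SE 0.30, adjusted p = 0.00103). Because of these shared libraries, that p is not independent of the choice of the gene. No fold is given for this difference between the lines, because the UM-UC-3 libraries held at most 1 read. For the same reason its size depends on the pseudocount, being 1.83 with 1 TPM and 7.23 with 0.01 TPM.

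**Figure D1:**
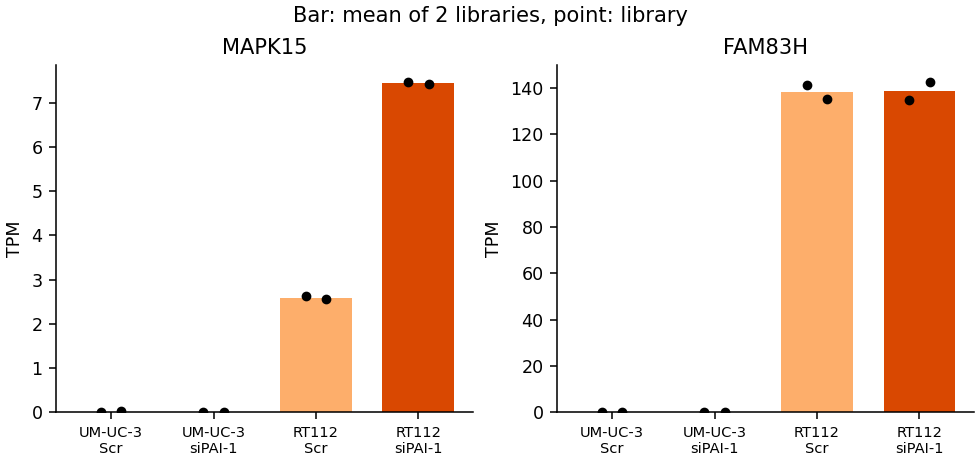
Levels in TPM (y axes from 0, on different scales) of MAPK15 and of its neighbour FAM83H in the 4 groups, with a bar for the mean of 2 libraries and a point for each library. MAPK15 and FAM83H were near 0 in UM-UC-3, and of these only MAPK15 was higher with siPAI-1 in both RT112 libraries, at 7.47 and 7.42 TPM.

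MAPK15 lies on chromosome 8 at 143716349 to 143722458 (GRCh38), and no other gene of the RefSeq table overlapped it. Its nearest measured neighbour, FAM83H, a protein that organises keratin filaments, begins 1474 bases beyond it. FAM83H was at 0, 0.22, 0.18 and 0.1 TPM in UM-UC-3, at 141.4 and 135.12 TPM in RT112 Scr, and at 134.7 and 142.75 TPM in RT112 siPAI-1. It thus shared the contrast between the lines with MAPK15, while its Scr and siPAI-1 values in RT112 overlapped, with a log2 difference of 0.0046. SCRIB, a cell polarity scaffold 68466 bases beyond, stood at 55.93 to 69.76 TPM in UM-UC-3 and 196.97 to 205.74 TPM in RT112. On the other side, CCDC166 was at 0 in 7 libraries and at 0.04 TPM in RT112 siPAI-1 replicate 2, and ZNF707, a zinc finger gene, stood between 11.07 and 19.48 TPM in all. Of these neighbours, the RT112 siPAI-1 values of CCDC166, FAM83H and SCRIB overlapped those with Scr, and those of ZNF707 lay below them.

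The genes whose pattern over the 8 libraries was most like that of MAPK15 were found by Pearson correlation of log2(TPM + 0.1) over the 12802 genes whose mean over all libraries reached 1 TPM. They were GUCA2A (r = 0.997), STRA13 (r = 0.997), TMEM173 (r = 0.997) and the long non-coding entries CTD-3157E16.1 and RP11-731F5.1 (both r = 0.996). The 8 points share 2 cell lines that differ in the level of each of these genes, and the genes were ranked on the pattern itself, so the values are a description. GUCA2A, the gut peptide guanylin, was at 0 in all UM-UC-3 libraries, at 1.76 and 2.31 TPM in RT112 Scr and at 3.88 and 4.62 TPM with siPAI-1. TMEM173, the DNA sensing adaptor STING, was at 3.97 to 4.63 TPM in UM-UC-3, 10.97 and 10.52 TPM in RT112 Scr and 15.67 and 15.5 TPM with siPAI-1. STRA13, a centromere and DNA repair protein also named CENPX, was at 56.38 to 57.83 TPM in UM-UC-3, 116.01 and 124.66 TPM in RT112 Scr and 140.81 and 142.93 TPM with siPAI-1.

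The make-up of the p38 transcripts differed between the lines. MAPK13 (p38 delta), a p38 kinase known mainly from epithelia, stood at 0.14 and 0.26 TPM in UM-UC-3 Scr, 0.13 and 0.33 TPM in UM-UC-3 siPAI-1, 93.85 and 97.96 TPM in RT112 Scr, and 108.99 and 97.28 TPM in RT112 siPAI-1. The lines did not overlap, while within each line the Scr and siPAI-1 values did. RT112 Scr exceeded UM-UC-3 Scr by 8.35 (log2, SE 0.25, adjusted p = 0.000313), a ratio of means of 479.5, and the siPAI-1 libraries gave 8.36 (SE 0.35, adjusted p = 0.000527). The UM-UC-3 values rest on an estimated 17 to 41 reads and the RT112 values on 12078 to 15915 reads. At such low UM-UC-3 levels the Scr difference depends on the pseudocount, being 6.34 with 1 TPM and 8.9 with 0.01 TPM. MAPK14 (p38 alpha), the p38 kinase found in most cell types, stood at 20.44 and 19.69 TPM in UM-UC-3 Scr, 21.62 and 20.33 TPM in UM-UC-3 siPAI-1, 33.7 and 30.21 TPM in RT112 Scr, and 35.15 and 33.14 TPM in RT112 siPAI-1. It was 0.67 higher in RT112 Scr (SE 0.092, adjusted p = 0.00647), a ratio of means of 1.59. Without either single UM-UC-3 Scr library MAPK14 lost its call, with adjusted p of 0.0848 and 0.0929.

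MAPK13 and MAPK14 are neighbours on chromosome 6. MAPK14 ends 6298 bases before MAPK13 starts, and the lines differed by 8.35 in the one and by 0.67 in the other. The 250 bases before each start are shown to set the start regions of these 2 neighbouring p38 genes side by side. The sequences are from RefSeq on GRCh38.p14, forward strand, at chr6:36130263-36130512 for MAPK13 and chr6:36027558-36027807 for MAPK14. Capitals mark CAGGTG or its reverse complement CACCTG, an E-box, and GGGCGG or CCGCCC, a GC box.
MAPK13: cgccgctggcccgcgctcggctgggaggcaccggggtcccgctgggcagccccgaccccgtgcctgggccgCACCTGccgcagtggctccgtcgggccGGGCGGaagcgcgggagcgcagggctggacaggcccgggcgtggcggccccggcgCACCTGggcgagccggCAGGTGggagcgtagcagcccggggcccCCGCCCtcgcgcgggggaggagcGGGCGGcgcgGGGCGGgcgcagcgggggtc
MAPK14: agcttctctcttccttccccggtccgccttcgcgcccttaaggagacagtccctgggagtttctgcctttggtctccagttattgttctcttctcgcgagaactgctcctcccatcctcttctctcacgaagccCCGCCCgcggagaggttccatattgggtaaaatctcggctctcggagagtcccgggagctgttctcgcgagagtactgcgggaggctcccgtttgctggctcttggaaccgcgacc
The MAPK13 window held 3 matches of the E-box letters, 4 of the GC box and 38 CG pairs, with a GC content of 84.4%. The MAPK14 window held 0 E-boxes, 1 GC box and 19 CG pairs, with a GC content of 59.2%. Among 27305 promoters of the same length, 17.5% held the E-box letters on either strand and 42.3% the GC box, and the median was 11 CG pairs (quartiles 3 and 23). TATAAA, searched on both strands and present in 11.1% of these promoters, was in neither window. The matches are letters in a sequence, and no binding was measured here.

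The other p38 genes, MAPK11 and MAPK12, are not members. MAPK11 (p38 beta) was at 21.09 and 16.27 TPM in UM-UC-3 Scr and 4.45 and 4.36 TPM in RT112 Scr, a difference of -2.05 (log2, SE 0.17, adjusted p = 0.00179). MAPK12 (p38 gamma) was at 28.93 and 23.45 TPM against 16.72 and 14.54 TPM, a difference of -0.74 (SE 0.15, adjusted p = 0.0189). The p38 genes therefore moved in opposite directions between the lines. MAPK13 made up 0.198% to 0.52% of the summed p38 TPM in the UM-UC-3 libraries and 63.1% to 67.9% in the RT112 libraries, and the sum of all 4 was 59.67 to 70.6 TPM and 147.1 to 160.6 TPM. In UM-UC-3 the largest share was that of MAPK12, at 39.3% to 41.0%.

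**Figure D2:**
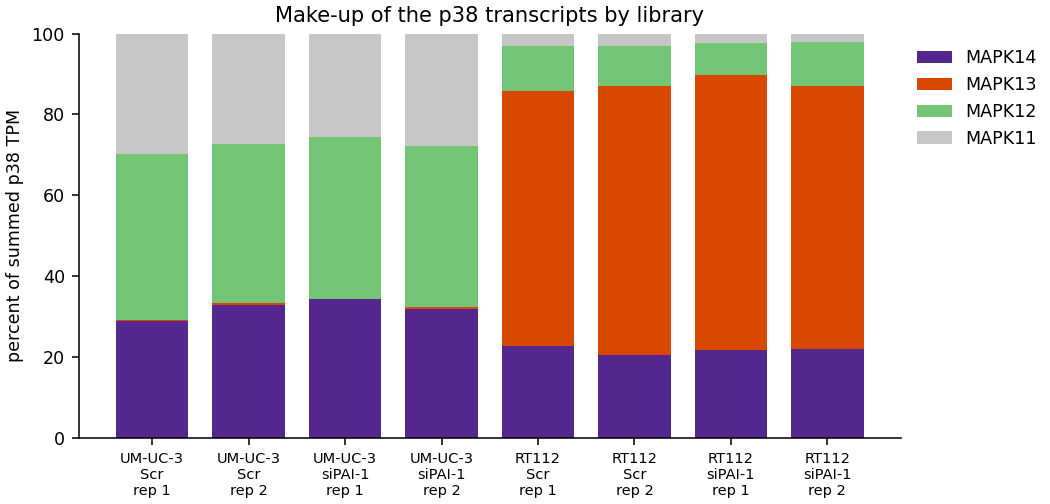
Percent of the summed TPM of the 4 p38 genes (y axis) that each gene contributes in each of the 8 libraries (x axis), stacked. MAPK13 made up 63.1% to 67.9% in the RT112 libraries and at most 0.52% in the UM-UC-3 libraries.

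Among the ERK kinases, 2 members were lower in RT112. MAPK3 (ERK1) stood at 89.08 and 87.2 TPM in UM-UC-3 Scr, 85.6 and 72.12 TPM in UM-UC-3 siPAI-1, 54.32 and 58.27 TPM in RT112 Scr, and 66.76 and 64.16 TPM in RT112 siPAI-1. With Scr the lines differed by -0.65 (log2, SE 0.064, adjusted p = 0.00263). In the siPAI-1 libraries, where the lines lay closer, the difference was -0.26 (SE 0.10, adjusted p = 0.103). MAPK7 (ERK5), a large kinase activated by MAP2K5, stood at 84.48 and 85.67 TPM in UM-UC-3 Scr, 83.96 and 84.71 TPM in UM-UC-3 siPAI-1, 33.61 and 42.99 TPM in RT112 Scr, and 41.3 and 37.51 TPM in RT112 siPAI-1. The lines differed by -1.16 with Scr (SE 0.14, adjusted p = 0.00418) and by -1.10 with siPAI-1 (SE 0.072, adjusted p = 0.00109). Without either single UM-UC-3 Scr library the calls for MAPK3 (adjusted p = 0.06 and 0.0571) and MAPK7 (0.113 and 0.116) were lost.

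Of the JNK members, 1 passed the test between the lines. MAPK8 (JNK1) stood at 56.33 and 59.06 TPM in UM-UC-3 Scr, 54.34 and 63.16 TPM in UM-UC-3 siPAI-1, 51.52 and 56.92 TPM in RT112 Scr, and 47.42 and 52.14 TPM in RT112 siPAI-1. The Scr groups overlapped, and the difference between the lines was -0.09 (SE 0.078, adjusted p = 0.391) with a 95% interval of -0.308 to 0.126. MAPK9 (JNK2) stood at 42.6 and 37.52 TPM in UM-UC-3 Scr, 44.96 and 46.2 TPM in UM-UC-3 siPAI-1, 53 and 57.73 TPM in RT112 Scr, and 57.32 and 57.89 TPM in RT112 siPAI-1. It was 0.47 higher in RT112 Scr (SE 0.097, adjusted p = 0.02) and 0.34 higher in the siPAI-1 libraries (SE 0.057, adjusted p = 0.0111). The Scr call was lost without any single library (adjusted p from 0.0823 to 0.174). MAPK10 (JNK3), outside the members and best known from neurons, was at 0.16 and 0.05 TPM in UM-UC-3 Scr and 6.4 and 4.92 TPM in RT112 Scr, with a difference of 4.85 (SE 0.41, adjusted p = 0.00178).

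The atypical members besides MAPK15 were one well expressed and one barely detected gene. MAPK6 (ERK3), which acts on the kinase MAPKAPK5, stood at 39.02 and 37.04 TPM in UM-UC-3 Scr, 45.17 and 42.68 TPM in UM-UC-3 siPAI-1, 38.65 and 39.94 TPM in RT112 Scr, and 39.46 and 36.83 TPM in RT112 siPAI-1. The Scr groups overlapped, with a difference of 0.05 (SE 0.069, adjusted p = 0.594, 95% interval -0.143 to 0.238). MAPK4 (ERK4), its closest relative, was listed at 0 and 0.03 TPM in UM-UC-3 Scr, at 0 in both UM-UC-3 siPAI-1 libraries, at 0 and 0.1 TPM in RT112 Scr and at 0.28 and 0.18 TPM in RT112 siPAI-1. The 3 highest MAPK4 values correspond to an estimated 30, 18 and 10 reads. The Scr groups overlapped (difference 0.31, SE 0.45, adjusted p = 0.59). For the siPAI-1 libraries no test is given, since MAPK4 entered that comparison only through RT112, with both UM-UC-3 libraries listed at 0.

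**Figure D3:**
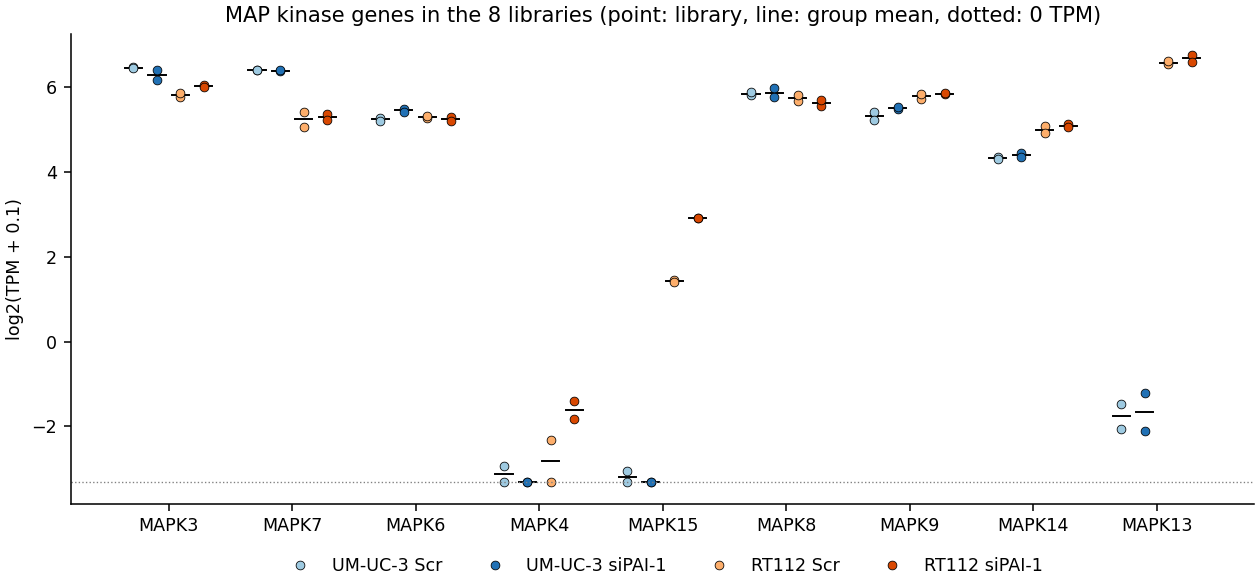
Level on the log2(TPM + 0.1) scale (y axis) of each of the 9 members (x axis) in every library, with points for the 2 libraries of a group and a line for their mean on that scale. MAPK13 and MAPK15 separated the lines by 8.35 and 4.62 with Scr, where both sizes depend on the pseudocount. MAPK4 stayed near the level of 0 TPM in most libraries, and the other 6 members lay between 19.69 and 89.08 TPM in all libraries.

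Read by rank, the members changed places between the lines. In UM-UC-3 Scr the order from the highest mean down was MAPK3, MAPK7, MAPK8, MAPK9, MAPK6, MAPK14, MAPK13, MAPK4 and MAPK15, and the neighbours MAPK9 and MAPK6, and MAPK4 and MAPK15, overlapped. In RT112 Scr it was MAPK13, MAPK3, MAPK9, MAPK8, MAPK6, MAPK7, MAPK14, MAPK15 and MAPK4. There MAPK3 overlapped MAPK9 and MAPK9 overlapped MAPK8, MAPK6 overlapped MAPK7 and MAPK7 overlapped MAPK14, and the other neighbours in this order did not overlap. MAPK13 thus stood at the seventh place in UM-UC-3 and at the first in RT112. The summed level of the 9 members was 326.5 to 335.8 TPM in UM-UC-3 and 361.3 to 404.2 TPM in RT112.

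Counted over the Scr libraries, 4 of the 9 members were higher in RT112 (MAPK9, MAPK13, MAPK14 and MAPK15), 2 were lower (MAPK3 and MAPK7) and 3 did not pass the test (MAPK4, MAPK6 and MAPK8). Over all 19201 genes tested, 51.6% passed, with 25.3% higher and 26.3% lower. The lines thus differed across the transcriptome, and the members' count of 6 of 9 lies near that background. Their median difference was 0.311 against -0.057 for all genes tested. The call of the member MAPK15 is not independent of its choice, which used the same RT112 Scr libraries. In the siPAI-1 libraries, leaving out MAPK15 and MAPK4, 3 of 7 members were higher in RT112 (MAPK9, MAPK13 and MAPK14) and 1 was lower (MAPK7). Over all 19359 genes tested there, 52.2% passed, with 26.2% higher and 26.1% lower, so these counts too lie near the background.

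No member passed the test for siPAI-1 against Scr in UM-UC-3. None of 18528 genes passed limma's adjusted threshold there (0.0%), while an unadjusted p under 0.05 was reached by 482 higher and 632 lower genes. These counts, and which of them was larger, changed with single libraries. They were 841 and 459 without siPAI-1 replicate 1, 734 and 454 without siPAI-1 replicate 2, 690 and 981 without Scr replicate 1 and 591 and 1336 without Scr replicate 2. By their values, MAPK6 and MAPK9 lay above Scr in both siPAI-1 libraries, MAPK3 lay below, and the other 6 overlapped, against 15.1% of all genes above and 17.1% below. The difference of MAPK6 was 0.21 (SE 0.073, unadjusted p = 0.0365, adjusted p = 0.812), that of MAPK9 0.19 (SE 0.087, adjusted p = 0.858) and that of MAPK3 -0.17 (SE 0.095, adjusted p = 0.858). For the well expressed members the 95% intervals bound what could have been missed. They ran from -0.15 to 0.125 for MAPK7, from -0.214 to 0.259 for MAPK8 and from -0.169 to 0.295 for MAPK14. For MAPK13, at 0.13 to 0.33 TPM, the interval of -1.23 to 1.42 was too wide to say more.

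In RT112, again none of 18437 genes passed the adjusted threshold (0.0%), and 617 higher and 446 lower genes reached an unadjusted p under 0.05. They numbered 1080 and 467 without siPAI-1 replicate 1, 1520 and 825 without siPAI-1 replicate 2, and 470 and 703 without Scr replicate 2, and without Scr replicate 1 they were 448 and 610. By their values, MAPK3, MAPK4 and MAPK15 lay above Scr in both siPAI-1 libraries, none lay below and 6 overlapped, against 18% of all genes above and 14.7% below. The log2 differences were 1.49 for MAPK15, 0.22 (SE 0.070) for MAPK3 and 1.21 (SE 0.50) for MAPK4. At these low levels the number for MAPK4 depends on the pseudocount, being 0.229 with 1 TPM and 2.82 with 0.01 TPM. The remaining members differed by -0.12 (MAPK8) to 0.10 (MAPK13). MAPK15 was thus one of 658 genes, 3.57% of those fitted, that were at least 2-fold higher, and MAPK4, with its few reads, was the other member past that fold.

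**Figure D4:**
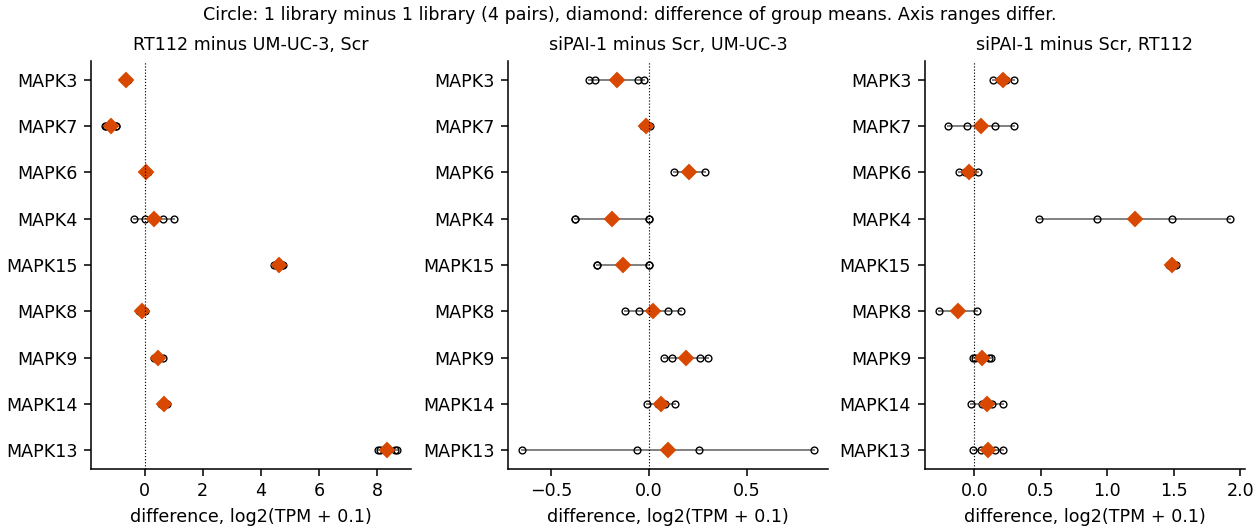
Differences in log2(TPM + 0.1) (x axes, on different ranges) of the 9 members (y axes) for RT112 minus UM-UC-3 with Scr and for siPAI-1 minus Scr in each line, with a circle for each of the 4 pairs of libraries and a diamond for the difference of group means. The differences of MAPK15 in RT112 lay close together around 1.49, while those of MAPK4 in RT112 and of MAPK13 in UM-UC-3 were widely spread.

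The difference between the lines in their response to siPAI-1 was fitted over all 8 libraries. None of 20274 genes passed the adjusted threshold of limma (0.0%), and 811 positive and 559 negative differences reached an unadjusted p under 0.05. Without single libraries these ranged from 781 to 1342 and from 625 to 931. The positive count was over 1.5 times higher without UM-UC-3 Scr replicate 2 (1342) or RT112 siPAI-1 replicate 2 (1339), and the negative count without RT112 siPAI-1 replicate 2 (931) or the UM-UC-3 library siPAI-1 replicate 1 (855). Among the members other than MAPK15, the values were 0.38 for MAPK3 (SE 0.13, unadjusted p = 0.0208, adjusted p = 0.668), 1.40 for MAPK4 (SE 0.55, unadjusted p = 0.0403, adjusted p = 0.716) and -0.25 for MAPK6 (SE 0.10, unadjusted p = 0.0433, adjusted p = 0.716). The remaining 5 had an unadjusted p of 0.298 or more. The UM-UC-3 side of the MAPK4 value rests on at most 3 estimated reads per library. That value also depends on the pseudocount, being 0.25 with 1 TPM and 3.82 with 0.01 TPM. For MAPK15 the value was 1.62 (SE 0.42), given without a test because the gene was chosen on its RT112 part.

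The lists of pathway genes below are to be read against the same background of 51.6% of all genes past the threshold between the Scr groups, with 25.3% higher and 26.3% lower, and nothing is called particular to a list. Among the upstream kinases, genes differed in both directions. Of 7 MAP2K genes, 2 were higher and 4 lower in RT112 Scr. MAP2K6, an activator of the p38 kinases, was at 2.66 and 2.49 TPM in UM-UC-3 Scr and 5.57 and 8.19 TPM in RT112 Scr (difference 1.36, SE 0.25, adjusted p = 0.0147). MAP2K3, also an activator of p38 kinases, was lower (-0.55, SE 0.072, adjusted p = 0.0055). MAP2K2, an activator in the ERK cascade, was at 164.03 and 150.73 TPM against 73.82 and 70.69 TPM (-1.12, SE 0.067, adjusted p = 0.00088). Of the JNK activators, MAP2K4 was higher (0.38, SE 0.082, adjusted p = 0.0224) and MAP2K7 lower (-0.92, SE 0.093, adjusted p = 0.00284).

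Of 21 MAP3K genes, 20 had an entry and 19 were tested, with 4 higher and 9 lower. MAP3K12 (DLK), a JNK pathway kinase known from neurons, was at 15.07 and 13.9 TPM in UM-UC-3 Scr and at 0.34 and 0.53 TPM in RT112 Scr (-4.79, SE 0.27, adjusted p = 0.000778). In RT112 siPAI-1 its values were 0.44 and 3.29 TPM, so that replicate 2 stood apart. MAP3K9 was at 2.77 and 2.67 TPM against 9.28 and 9.66 TPM (1.76, SE 0.15, adjusted p = 0.00177). Of 12 scaffolds and adaptors, 3 were higher and 4 lower. MAPK8IP1 (JIP1), which holds the JNK module together, was at 31.26 and 28.63 TPM against 5 and 5.83 TPM (-2.45, SE 0.13, adjusted p = 0.000711), and MAPK8IP2 differed by -2.80 (SE 0.17, adjusted p = 0.000926).

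Downstream, 4 of 11 kinases activated by MAP kinases were higher and 2 lower. MAPKAPK2 (MK2), the main kinase downstream of p38 alpha, was at 31.5 and 32.74 TPM in UM-UC-3 Scr and 73.36 and 64.81 TPM in RT112 Scr (1.10, SE 0.088, adjusted p = 0.00158), and RPS6KA2 (RSK3), activated by ERK, was at 33.42 and 34.22 TPM against 8.61 and 7.56 TPM (-2.05, SE 0.11, adjusted p = 0.000689). Of 11 transcription factors that MAP kinases phosphorylate, 9 were lower, 0 were higher and 2 did not pass. ELK3 was at 237.43 and 229.5 TPM against 34.71 and 32.14 TPM (-2.80, SE 0.065, adjusted p = 0.000274), and JUN, a main JNK substrate, at 198.48 and 176.36 TPM against 75.43 and 70.32 TPM (-1.36, SE 0.084, adjusted p = 0.000915). The median over these factors was -0.99, against -0.057 over all genes tested.

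The phosphatases that switch MAP kinases off were split, with 4 higher and 4 lower of 10. DUSP9 was at 0.8 and 0.77 TPM in UM-UC-3 Scr and 33.79 and 35.79 TPM in RT112 Scr (5.30, SE 0.14, adjusted p = 0.000304). In RT112 siPAI-1 it stood at 61.16 and 44.47 TPM, above both Scr libraries, as were 18% of all genes fitted. DUSP6, which acts on ERK and is itself induced by it, was at 25.96 and 20.1 TPM against 112.26 and 107.73 TPM (2.26, SE 0.14, adjusted p = 0.000955). DUSP1, an early response phosphatase for p38 and JNK, was lower, at 35.34 and 29.52 TPM against 6.18 and 5.6 TPM (-2.44, SE 0.14, adjusted p = 0.000795). In RT112 siPAI-1, DUSP6 (107.39 and 104.83 TPM) and DUSP1 (4.19 and 5.39 TPM) lay below both Scr libraries, as did 14.7% of all genes fitted.

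**Figure D5:**
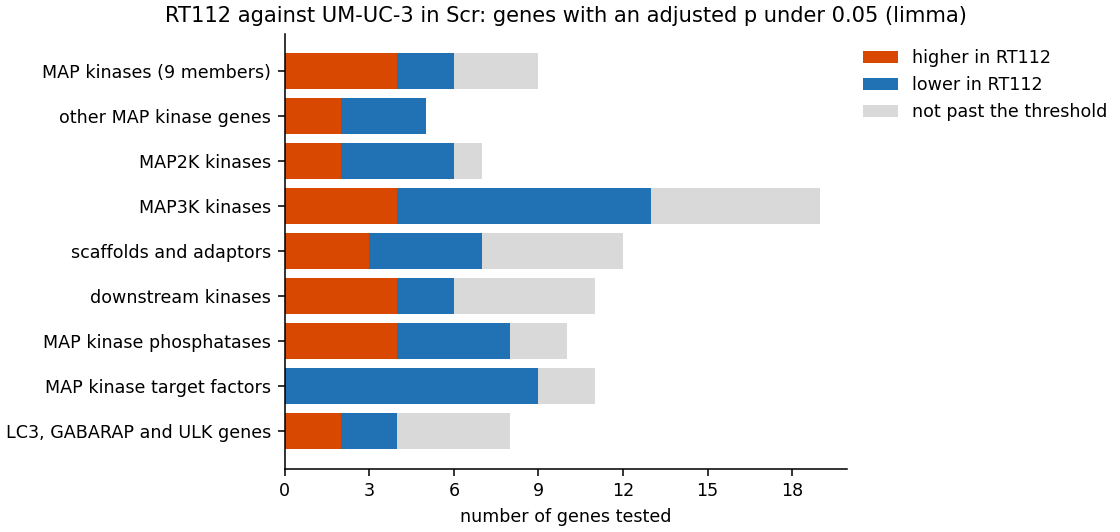
Number of genes (x axis) in each list of the MAP kinase pathways (y axis) that were higher, lower or not past the threshold in RT112 Scr against UM-UC-3 Scr by limma, at an adjusted p under 0.05. The target factors held 9 lower and 0 higher genes of 11, while the members held 4 higher and 2 lower of 9, with 51.6% of all genes past the threshold.

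The lists of MAPK15 partners in autophagy and of cilium genes held genes of both directions. Of 8 genes of the LC3, GABARAP and ULK families, 2 were higher and 2 lower in RT112 Scr. MAP1LC3A, an LC3 protein that coats autophagosomes, was at 18.6 and 18.57 TPM in UM-UC-3 Scr and at 0.08 and 0 TPM in RT112 Scr (-7.12, SE 0.38, adjusted p = 0.00072), and GABARAP was at 631.52 and 619.2 TPM against 249.42 and 263.71 TPM (-1.29, SE 0.048, adjusted p = 0.000413). GABARAPL1 was higher, at 4.36 and 3.88 TPM against 12.03 and 10.54 TPM (1.43, SE 0.15, adjusted p = 0.00331). Of 20 motile cilium genes 18 were tested, with 3 higher and 3 lower. Their summed level was 22.53 to 29.49 TPM in all 8 libraries. Among the higher genes, FOXJ1, the master regulator of motile cilia, was at 0 to 0.03 TPM in UM-UC-3 and 0.47 to 1.16 TPM in RT112. Among the lower genes, CCDC39 was at 0.7 and 1.01 TPM in UM-UC-3 Scr and at 0.08 and 0.14 TPM in RT112 Scr. None of the lists had a gene past the adjusted threshold of limma for siPAI-1 against Scr in either line.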

How the data were processed

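The series holds RNA-seq of 8 libraries from stranded mRNA kits, with 2 per group. Per the submitters' processing notes, reads were aligned with STAR 2.5.0 to GRCh38 and quantified with RSEM 1.2.25, which divides reads shared by similar genes, so values of close paralogues carry that uncertainty. The methods of the study give cutadapt, STAR and featureCounts, with no version of any. The authors deposited gene values as TPM, scaled per transcript length and to a fixed sum, and as FPKM, scaled per length and per total reads. The authors tested with DESeq2. Since it needs counts, limma 3.58.1 (R 4.3.3; lmFit, eBayes with trend, two-sided) was run on log2(TPM + 0.1), which understates changes of low genes, over genes above 0 in at least 1 fitted library, with Benjamini-Hochberg adjustment over all of them and a threshold of 0.05. The procedure was tested on simulated data with an assumed spread between libraries, so that test does not show what it recovers at the spread seen here. The 92 ERCC entries were left out.

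Depth (29.3 to 34.15 M reads) was estimated from the smallest steps of the deposited FPKM values of short genes, searched between 20 and 45 M. Reads per gene were estimated from it and the longest transcript, as upper estimates. The members and gene lists were chosen with earlier results of these data known. Named were all members, up to 3 genes per list and direction with the smallest p among those called, the 5 genes most like MAPK15 and its 2 measured neighbours on each side. Positions and promoters come from RefSeq GRCh38.p14. Alternatives covered the pseudocount, FPKM, rescaling, a TPM filter, 1 fit over all libraries, a replicate block, no trend and leaving out each library. Protein sequences and siRNA sequences were not used here. The level of the siRNA target and that of 1 gene of the pathway lists are not reported here.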

Additional observations from a re-analysis of the deposited data

Results flagged for a closer look

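MAPK3 was flagged because siPAI-1 went with opposite directions in the 2 lines. Both of its siPAI-1 libraries were below both Scr libraries in UM-UC-3 and above both in RT112. Of all genes fitted, 17.1% lay below in UM-UC-3 and 18% lay above in RT112. The difference between the 2 effects was 0.38 on the log2 scale (SE 0.13, unadjusted p = 0.0208), with an adjusted p of 0.668 over all genes in limma's interaction test, so it did not pass the threshold. In UM-UC-3 the lowest value was that of siPAI-1 replicate 2, at 72.12 TPM against 85.6 TPM in replicate 1. Leaving out single libraries gave 0.26 to 0.507. MAPK3 was not alone, since in the same interaction test MAPK6 had an unadjusted p of 0.0433 and MAPK4, with its few reads, one of 0.0403.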

How the results depend on the processing

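Of 627 values under alternatives for 49 results, 563 stayed close: tested values kept direction and side of the threshold, values without a test moved by less than the spread between replicates, and counts stayed within 1.5 times. MAPK13 stayed called between the lines under all alternatives run. MAPK15 also passed in those with Scr libraries, but the RT112 Scr libraries were part of its choice, so this lends its call no support. With the 1 TPM filter, or without UM-UC-3 Scr replicate 2, MAPK15 entered the fit only through RT112. For the siPAI-1 libraries in place of Scr it has no test, because it was chosen on some of them. Leaving out single Scr libraries gave 2975 to 3120 higher and 2655 to 3589 lower genes between the lines (4850 and 5059 with all), where fewer samples were fitted, and MAPK4 then ranged from -0.189 to 0.811. With siPAI-1 libraries in place of Scr, MAPK6 was -0.203. MAPK9 was not called without the trend (adjusted p = 0.0623). In UM-UC-3, 1 gene was called lower with a mean of at least 1 TPM, and without single libraries MAPK8 ranged from -0.0859 to 0.131 and MAPK13 from -0.354 to 0.549. In RT112, single libraries left out turned the sign of small differences without a test (MAPK6 -0.093 to 0.00622, MAPK7 -0.127 to 0.227, MAPK9 -0.00314 to 0.12), 1 fit over all libraries called 2 genes higher, and MAPK15 was 1.23 with a pseudocount of 1 TPM and 1.52 with 0.01 TPM. For the difference of the effects, no trend gave 4 higher and 3 lower genes, and single libraries left out gave 0 to 101 higher and 0 to 42 lower. The highest counts came without RT112 siPAI-1 replicate 2 (101 higher, 22 lower), without RT112 siPAI-1 replicate 1 (20 higher) and without UM-UC-3 siPAI-1 replicate 1 (2 higher, 42 lower), and without UM-UC-3 Scr replicate 2 there was 1 lower. There MAPK7 ranged from -0.114 to 0.24, MAPK13 from -0.446 to 0.457 and MAPK14 from -0.045 to 0.112, and MAPK13 was -0.0137 with a pseudocount of 0.01 TPM and -0.00722 after rescaling by the median ratio. The cause was not tested for any of these. Libraries of equal replicate number showed little shared deviation (correlations 0.056 in UM-UC-3, -0.046 in RT112 and 0.014 between the Scr groups). This cannot tell whether they came from the same experiment. With the replicate block, 4597 genes were higher and 4790 lower between the lines, and 0 were called in the other comparisons. No value could be had for genes removed by the 1 TPM filter or at 0 in the libraries kept. Depth limits MAPK15 and MAPK4 in UM-UC-3, where at most 3 reads were estimated.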
